A study of Mus musculus with 39 samples.

Results

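The 10 genes described here, Adipoq, Plin1, Cfd, Fabp4, Lep, Cidec, Ucp1, Lipe, Pck1 and Retsat, are genes of fat cells. They were taken by gene symbol from the lung and colon expression tables of a mouse study, and each of the 10 matched 1 Ensembl gene among the 55357 in each table. They were chosen to gauge how much fat cell transcript each RNA-seq library of these tissues holds, and they do not serve alike for that. Lipe and Retsat were not shown to track Adipoq in WT lung, and other cells also make Fabp4 and Pck1. The study compared wild-type (WT) mice with mice lacking Cd177 (KO), both on the C57BL/6N strain background, after sham operation or in acute pancreatitis (AP). Lung and colon were sequenced. There were 5 libraries each of WT sham, WT AP, KO sham and KO AP lung, the same for WT sham, WT AP and KO sham colon, and 4 of KO AP colon, 39 libraries in all. The labels do not give the age of the mice, how AP was induced, the Cd177 allele, or whether libraries came from separate animals, so p-values below measure only the spread between libraries. Values are FPKM, fragments counted relative to transcript length and to library size, so levels of different genes are per length.

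White adipocytes store triglyceride in a single large droplet and secrete hormones, while brown adipocytes burn fuel to make heat. Fat lies against both organs in the mouse, as mediastinal and perihilar fat beside the lung and as mesenteric fat along the colon, and brown fat depots lie in the upper thorax and between the shoulder blades. The 10 genes cover different steps. Adipoq (adiponectin), Lep (leptin) and Cfd (adipsin, complement factor D) are secreted by adipocytes. Plin1 and Cidec coat the lipid droplet and help it grow, and Lipe (hormone-sensitive lipase) breaks stored fat down. Fabp4 carries fatty acids in adipocytes and is also made by capillary endothelium and macrophages. Pck1 feeds glycerol synthesis in fat and glucose synthesis in liver, kidney and intestine, Retsat saturates retinol, and Ucp1 is the uncoupling protein of brown fat.

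Whole-series checks bear on these values as follows. The deleted gene Cd177 was listed at 0 in all 10 KO lung and all 9 KO colon libraries, and lay between 1.305 and 4.18 FPKM in WT lung and between 38.5 and 76.4 FPKM in WT colon. The summed FPKM of 6 lung epithelial genes was 38062 to 154230 in lung libraries and 17.2 to 47.4 in colon libraries, so each library matched its tissue label. Sequencing depth, worked out from the steps between low FPKM values, was 57883000 to 71221000 reads in WT lung and 77015000 to 95423000 reads in KO lung. In colon it was 55551000 to 78274000 reads in WT and 77700000 to 98553000 reads in KO. Within sham and within AP, every KO library was deeper than every WT library in both tissues, so depth and genotype cannot be told apart. With 3 reads taken as the limit that a count of 0 allows, Adipoq listed at 0 means at most 0.0326 to 0.0401 FPKM in a WT lung library and at most 0.0243 to 0.0301 FPKM in a KO one. These limits cover counting error only.

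The stretch around the transcription start, 250 bases before it to 50 bases after it, was found for 9 of the 10 genes in a RefSeq promoter table on build GRCm38.p6. Fabp4 had no entry. The promoters of Adipoq, Lep, Ucp1 and Pck1 are printed because these genes represent adiponectin and leptin secretion, brown fat and the gluconeogenic step. All 4 lie on the plus strand, at chr16:23146286-23146585 (Adipoq), chr6:29059971-29060270 (Lep), chr8:83290098-83290397 (Ucp1) and chr2:173152823-173153122 (Pck1). They are written 5′ to 3′, with matches to the letters searched in capitals.
Adipoq: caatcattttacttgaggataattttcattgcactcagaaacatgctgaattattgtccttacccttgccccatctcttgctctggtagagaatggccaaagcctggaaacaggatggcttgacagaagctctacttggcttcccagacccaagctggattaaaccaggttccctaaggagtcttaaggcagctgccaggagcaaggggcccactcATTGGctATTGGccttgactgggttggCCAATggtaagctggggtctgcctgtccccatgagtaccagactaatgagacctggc
Lep: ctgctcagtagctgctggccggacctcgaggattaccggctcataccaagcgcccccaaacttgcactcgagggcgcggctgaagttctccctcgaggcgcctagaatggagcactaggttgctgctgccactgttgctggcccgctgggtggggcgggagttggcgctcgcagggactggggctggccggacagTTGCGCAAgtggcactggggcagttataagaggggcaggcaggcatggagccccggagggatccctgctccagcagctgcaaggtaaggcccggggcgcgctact
Ucp1: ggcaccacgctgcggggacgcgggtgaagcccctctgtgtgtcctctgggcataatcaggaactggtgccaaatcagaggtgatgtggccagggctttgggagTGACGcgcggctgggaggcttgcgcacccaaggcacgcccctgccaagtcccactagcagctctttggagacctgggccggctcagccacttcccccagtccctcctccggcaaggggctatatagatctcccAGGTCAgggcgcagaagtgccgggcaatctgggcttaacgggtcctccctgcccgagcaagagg
Pck1: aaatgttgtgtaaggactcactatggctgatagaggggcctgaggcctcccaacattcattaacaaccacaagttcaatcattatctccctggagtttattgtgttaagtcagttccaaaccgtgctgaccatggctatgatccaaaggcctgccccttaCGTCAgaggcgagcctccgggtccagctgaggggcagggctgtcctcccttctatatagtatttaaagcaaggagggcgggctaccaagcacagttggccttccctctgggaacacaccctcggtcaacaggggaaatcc
The letters CCAAT matched 3 times in the Adipoq promoter on either strand, at 34, 27 and 7 bases before the start, and occurred in 37.4% of 32851 mouse promoters of this length. TTGCGCAA, a palindrome of the kind that C/EBP factors bind, lay 55 bases before the start of Lep and occurred in 0.183% of promoters. AGGTCA, a nuclear receptor half-site, lay 14 bases before the start of Ucp1 (16.3% of promoters). TGACG, which is part of the cAMP response element, began 90 bases before the start of Pck1 on the minus strand and 147 bases before that of Ucp1 on the plus strand (20.8% of promoters). TATAAA matched in Retsat, 30 bases before the start (13.6% of promoters), and a direct repeat of AGGTCA with 1 base between, as PPARG with RXR binds, matched in none of the 9 (0.0396% of promoters). Both strands were searched for each motif, and the letters were chosen with the promoters at hand. A match is a description of the sequence and not of binding.

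Among the 20 lung libraries, KO AP replicate 3 stood apart for every one of the 10 genes. Adiponectin transcript, Adipoq, was 0, 0.208, 144, 0.303 and 0.125 FPKM in KO AP replicates 1 to 5. The third library held 17695 Adipoq reads, and its level was 19.9 times that of the highest of the other 19 lung libraries. Plin1, the droplet coat protein, was 0.159, 0, 91.7, 0 and 0.207 FPKM, and the third library was 32.8 times above the highest other lung library. In both genes the other 4 KO AP libraries were at or near 0.

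Ucp1 showed the widest gap. It was listed at 0 in the other 4 KO AP lung libraries and at 181 FPKM in KO AP replicate 3, which held 28196 Ucp1 reads. In the other 15 lung libraries Ucp1 lay between 0 and 0.0911 FPKM, so replicate 3 was 1983 times above the highest of them. Lep was 2.97 FPKM in replicate 3, listed at 0 in the other 4 KO AP libraries, and at most 0.0403 FPKM in the remaining lung libraries. Leptin was thus the least abundant of the 10 in the library where all were highest.

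The other 6 genes were also highest there, by unequal ratios. Fabp4 was 1.98, 4.05, 1402, 4.60 and 7.99 FPKM across the KO AP replicates, 31.7 times above the highest other lung library. Cfd was 3.49, 1.48, 697, 11.1 and 2.23 FPKM, with a ratio of 7.27, and Cidec was 1.74, 0.827, 184, 0.946 and 1.42 FPKM, with a ratio of 9.65. Pck1 was 0, 0, 103, 0 and 0.0158 FPKM, with a ratio of 14.5. In each of these 4 genes the third replicate was far above the rest, and no other KO AP library passed 11.1 FPKM in any of them. Lipe, at 30.5, 26.7, 112, 27.3 and 45.2 FPKM, and Retsat, at 8.13, 3.98, 24.6, 3.32 and 4.24 FPKM, had the smallest ratios, 2.47 and 1.83. Both are expressed in every lung library.

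**Figure D1:**
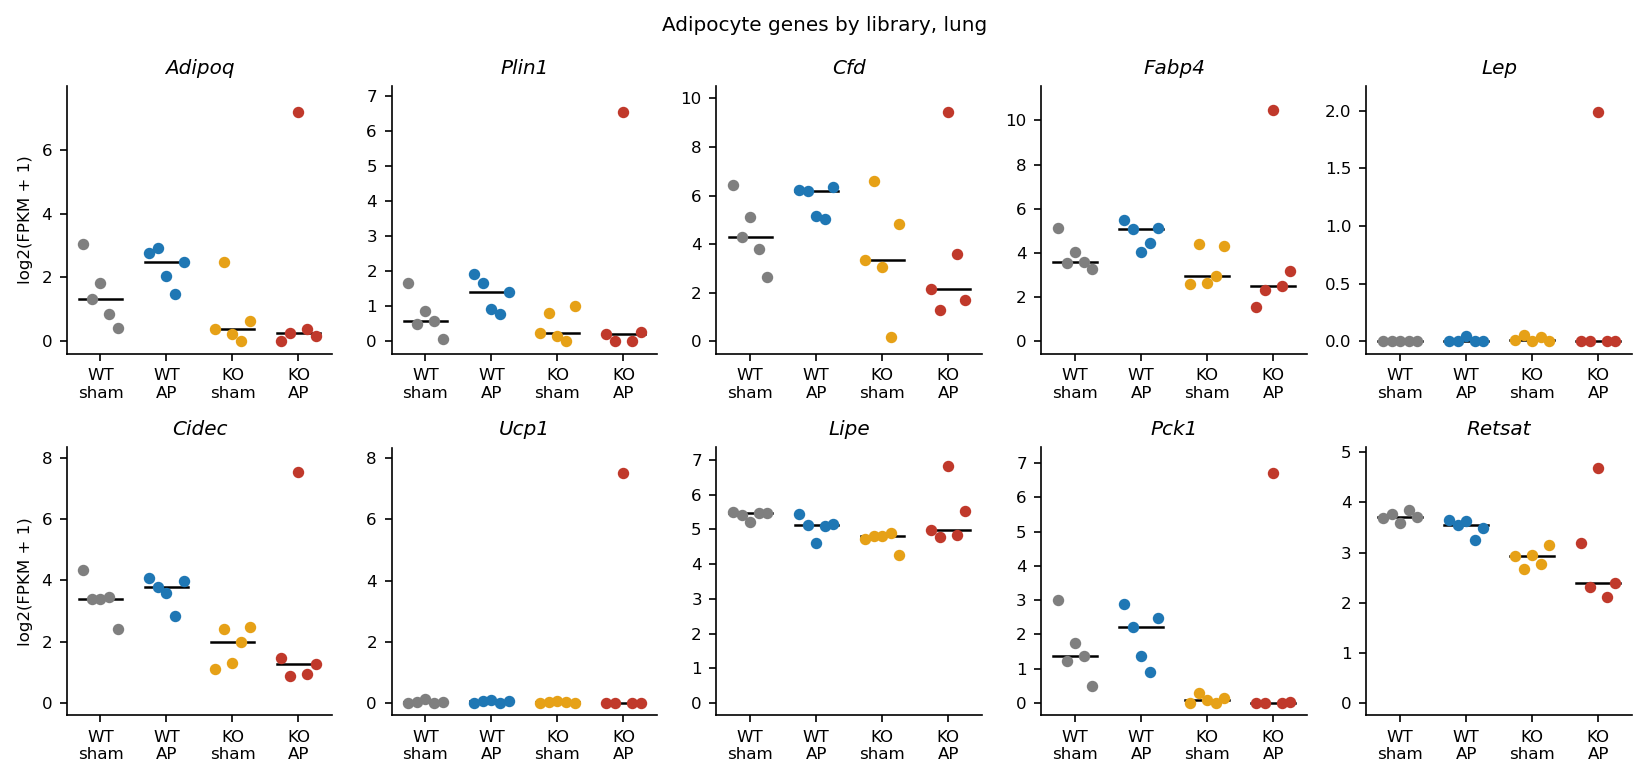
Level of each of the 10 adipocyte genes in the 20 lung libraries, as log2(FPKM + 1), by group; each point is 1 library in replicate order from left to right and the line is the group median. KO AP replicate 3 is the highest point in every panel, reaching 181 FPKM for Ucp1 and 1402 FPKM for Fabp4.

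The same library carried other fat genes and muscle genes. Of 14 further adipocyte genes, 11 were highest in KO AP replicate 3 and 7 were at least 10 times above every other lung library. Their summed level was 1865 FPKM there against 31.0 to 93.4 FPKM in the other 19. Car3, an abundant carbonic anhydrase of fat and muscle, was 943 FPKM against at most 27.2 FPKM, and the adipokine Retn was 92.7 FPKM against at most 6.40 FPKM. Thrsp, a lipogenic regulator, was 519 FPKM against at most 10.01 FPKM. Nnat, Slc7a10 and Tshr were the 3 of the 14 that were not highest there.

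Brown fat genes followed Ucp1. Their 10-gene sum was 626 FPKM in KO AP replicate 3 against 17.4 to 55.2 FPKM elsewhere in lung, and 9 of the 10 were highest in it. Of these, 6 were at least 2 times and 3 at least 10 times above every other lung library. Ppargc1a, Kcnk3 and Dio2 were only 1.39 to 1.57 times above, and Zic1 was at 0.136 FPKM. Cidea, a droplet protein of brown fat, was 330 FPKM against at most 6.51 FPKM, and Cox8b, a muscle and brown fat respiratory subunit, was 180 FPKM against at most 19.0 FPKM. Elovl3 was 6.65 FPKM and Otop1 was 7.09 FPKM, with at most 0.0336 and 0.0969 FPKM in any other lung library. Prdm16, at 2.19 FPKM, was the exception, since other lung libraries reached 5.95 FPKM.

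Muscle transcripts were high in that library too. The 6 skeletal muscle genes summed to 3636 FPKM against 3.11 to 15.7 FPKM in the other 19 lung libraries, and all 6 were highest there. Acta1, skeletal actin, was 1999 FPKM against at most 1.61 FPKM, and Myh4, a fast myosin, was 9.86 FPKM where the other 19 libraries were listed at 0. All 9 cardiac genes were highest there as well, with a sum of 3516 FPKM against 65.3 to 578 FPKM. The 6 lung epithelial genes summed to 42715 FPKM, the second lowest of the lung values, and 8 endothelial genes to 879 FPKM, just under the lowest other value of 883 FPKM. Scgb1a1 (21094 FPKM against 44909 to 130343 FPKM), Sftpb and Hopx were below the other 4 KO AP libraries, while Sftpc, Sftpa1 and Ager were inside their range. Of the endothelial genes only Egfl7 was below those 4, at 417 FPKM against 710 to 1340 FPKM. Across all genes, 154 reached at least 1 FPKM and at least 10 times every other lung library in KO AP replicate 3, against 0 to 7 in each of the other 19. The share of all genes that were highest in KO AP replicate 3 by any ratio was not counted. Car3, Thrsp, Cidea, Acta1 and the other examples in these 3 paragraphs were chosen after their values were seen. The part of the muscle and fat lists in any group difference was not tested, so results below are given with and without this library.

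**Figure D2:**
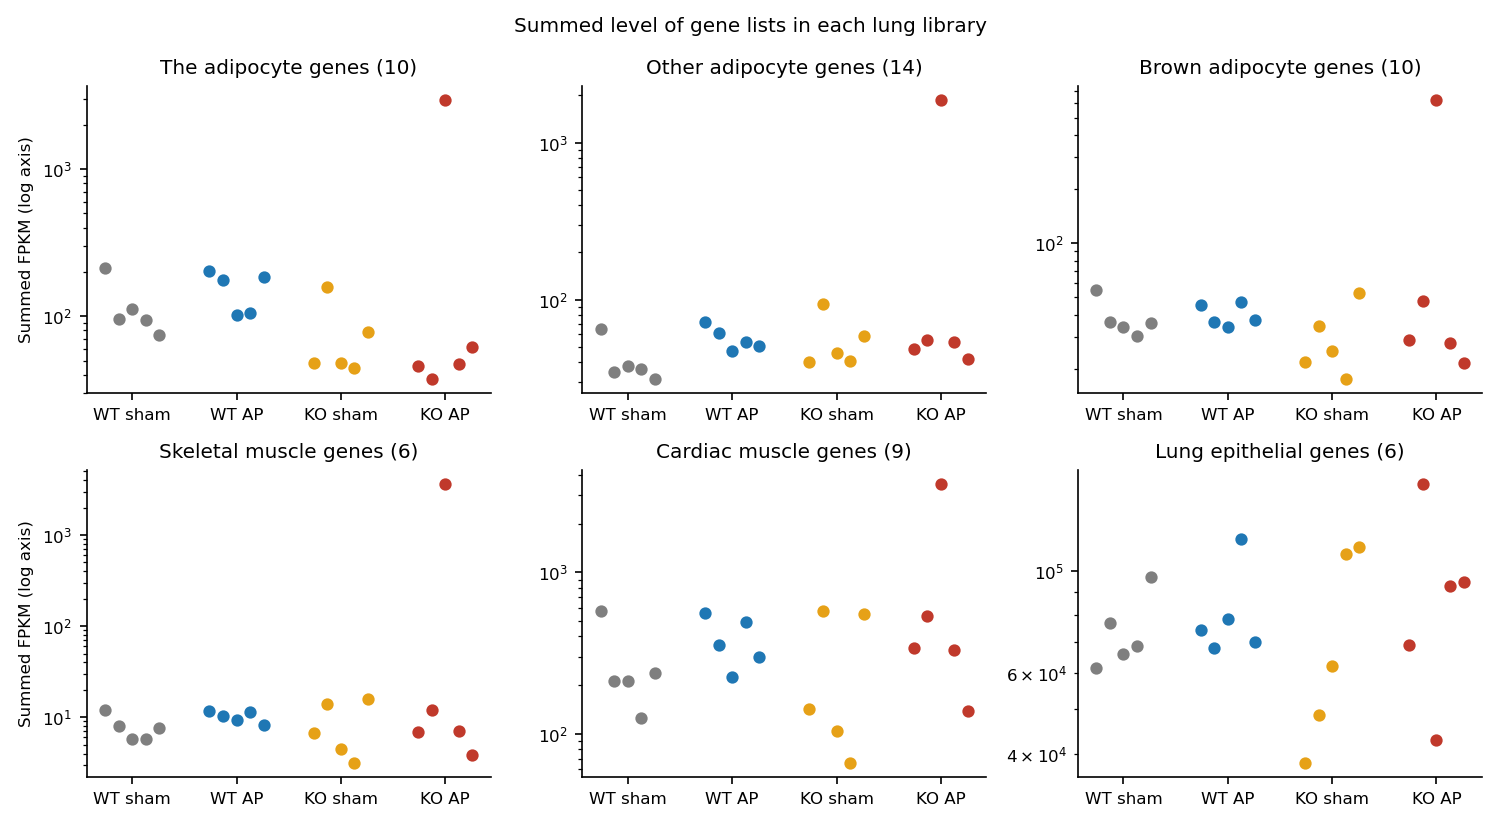
Summed FPKM of 6 gene lists in each lung library, on log axes, by group; each point is 1 library and the number of genes in the list is in brackets. In the fat and muscle panels KO AP replicate 3 lies above all other libraries (2942 FPKM against 37.2 to 212 FPKM for the 10 adipocyte genes), while its lung epithelial sum is the second lowest. Of those epithelial genes, Scgb1a1 was below the other 4 KO AP libraries and Sftpc was inside their range.

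In the other 19 lung libraries the 10 genes split into 3 kinds. Lep and Ucp1 were at or near 0. Lipe and Retsat were expressed in every library, at no less than 18.2 FPKM and 3.32 FPKM. Adipoq, Plin1, Cfd, Fabp4, Cidec and Pck1 ranged from low to high within WT sham, and the same libraries were high for several of them.

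WT sham replicate 1 was such a library. Adipoq was 7.20, 1.49, 2.52, 0.821 and 0.345 FPKM in WT sham replicates 1 to 5, and Cfd was 85.7, 18.7, 33.7, 13.1 and 5.22 FPKM. Pck1 was 7.11, 1.34, 2.38, 1.57 and 0.397 FPKM. In all 3 genes replicate 1 was highest and replicate 5 lowest, as it was for Plin1, Fabp4 and Cidec. Lipe, at 44.0, 41.3, 36.1, 43.1 and 43.8 FPKM, and Retsat, at 11.9, 12.7, 11.1, 13.5 and 12.0 FPKM, did not show that order.

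KO sham replicate 2 was high for the secreted proteins. Adipoq was 0.322, 4.55, 0.173, 0 and 0.573 FPKM in KO sham lung, and Cfd was 9.27, 95.9, 7.35, 0.130 and 27.1 FPKM. The Cfd level of replicate 2 was the highest of any lung library other than KO AP replicate 3, and above WT sham replicate 1. Pck1 in the same 5 libraries was 0, 0.225, 0.0703, 0 and 0.114 FPKM. Its level in replicate 2 was 0.0494 of that of Adipoq, where WT lung libraries with at least 1 FPKM of Adipoq gave ratios of 0.492 to 1.11. Plin1 was highest in KO sham replicate 5 instead, at 1.03 FPKM against 0.764 FPKM in replicate 2.

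The KO and WT lungs were then compared. The test was limma on log2(FPKM + 1), with p-values adjusted by the Benjamini-Hochberg method over 15978 genes that reached 1 FPKM in at least 4 lung libraries. Of the 10 genes, 8 were tested, and Lep and Ucp1 were not. In sham lung, Lipe and Retsat fell and the other 6 did not pass. Lipe was 25.2, 26.9, 27.2, 28.7 and 18.2 FPKM in KO sham, all below the lowest WT sham value of 36.1 FPKM, a log2 difference of -0.71 ± 0.28 (SE, adjusted p = 0.0319, limma). Retsat was 6.67, 5.40, 6.79, 5.82 and 7.85 FPKM in KO sham, also without overlap with WT sham, a log2 difference of -0.83 ± 0.32 (adjusted p = 0.0307, limma). Lipe missed the threshold when any of WT sham replicates 1, 2, 4 and 5 and KO sham replicate 5 was left out (adjusted p at most 0.0812). Retsat missed it when any of replicates 2 and 4 of either sham group was left out (at most 0.0629). Both missed it when genes of low level were kept in the test (adjusted p = 0.0739 for Lipe and 0.0731 for Retsat, limma, no filter). Those 2 of 8 stand beside 30.0% of all genes tested that were lower in KO sham, so their share is near the background. How many of all genes were without overlap between the groups was not counted.

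For the remaining members the sham values overlapped or the spread set by KO AP replicate 3 was wide. Cidec, which enlarges lipid droplets, was 19.1, 9.60, 9.56, 9.89 and 4.35 FPKM in WT sham and 1.15, 4.32, 1.49, 2.96 and 4.51 FPKM in KO sham. Only the lowest WT and highest KO library overlapped, and the log2 difference was -1.55 ± 0.87 (adjusted p = 0.135, limma). Without KO AP replicate 3, which leaves the sham values as they are and narrows the shared estimate of spread, 4 genes passed, all lower, beside 31.0% of all genes tested. They were Lipe, Retsat, Cidec (adjusted p = 0.00043, limma) and Pck1 (-1.46 ± 0.37, adjusted p = 0.0024, limma). Every KO sham library had less Pck1 than every WT sham library. In lung, Pck1 reached 1 FPKM only in WT libraries and KO AP replicate 3. It thus passed the level filter only through libraries where it was high, and its p-values are not independent of that filter. KO AP replicate 3 was set aside for its high values of these same genes, so their share and that of all genes are not alike. Adipoq (-0.74 ± 0.45, adjusted p = 0.164), Plin1, Cfd and Fabp4 did not pass in limma in either fit.

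In AP lung the comparison of genotypes turned on 1 library. With all 20 libraries, 0 of the 8 genes passed in limma, where 55.8% of all genes tested did. Counted at an unadjusted p under 0.05, 9657 of the 15978 genes passed and still none of the 8. The 8 log2 differences ran from -2.15 ± 1.25 for Cfd to 0.30 ± 0.28 for Lipe, with a median of -0.68 beside 0.0042 for all genes.

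Without KO AP replicate 3, 7 of the 8 were lower in KO AP than in WT AP, beside 28.5% of all genes tested that were lower. That library was set aside because it was highest for these same genes. Leaving it out lowers their KO AP means and narrows their spread by construction, which does not hold for all genes. The 2 shares are therefore not alike, and the adjusted p-values of this fit depend on that choice. Adipoq was 5.82, 6.51, 3.11, 1.81 and 4.60 FPKM in WT AP, and its highest value in the other 4 KO AP libraries was 0.303 FPKM. The log2 difference was -2.13 ± 0.48 (adjusted p = 0.0011, limma). Cidec was 16.0, 12.9, 10.9, 6.08 and 14.6 FPKM in WT AP and at most 1.74 FPKM in those 4, a log2 difference of -2.51 ± 0.34 (adjusted p = 1.1e-05, limma). Neither gene had overlapping groups once the library was set aside. The share of all genes that were likewise without overlap was not counted, here or in the other comparisons. In this fit 8892 of 15978 genes passed in either direction.

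For Cfd, which had the largest difference of the 8 in this fit, and for Fabp4 the groups were also separate. Cfd was 73.5, 72.7, 34.8, 32.2 and 79.6 FPKM in WT AP against at most 11.1 FPKM, a difference of -3.60 ± 0.92 (adjusted p = 0.0029, limma). Fabp4 was 44.2, 32.6, 15.6, 20.8 and 33.8 FPKM in WT AP against at most 7.99 FPKM, a difference of -2.45 ± 0.44 (adjusted p = 0.00017, limma). Fabp4 is also an endothelial gene, and 6 of 8 endothelial genes were lower in KO AP in the same fit (median log2 difference -1.003), beside 28.5% of all genes tested. The endothelial gene Egfl7 was 710 to 1340 FPKM in the 4 KO AP libraries, and its highest lung value was among them. Of 7 macrophage genes 5 were lower (median -0.89), and of 6 adventitial fibroblast genes 5 (median -1.36), with none higher in either list. With all 20 libraries 5 of the 8 endothelial genes were lower and 1 was higher. The part of these cell types in the differences of Fabp4 and the other members was not tested.

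Pck1 was 6.46, 3.67, 1.57, 0.889 and 4.55 FPKM in WT AP and at most 0.0158 FPKM in the 4 KO AP libraries. Its difference was -1.97 ± 0.39 (adjusted p = 0.00041, limma). Plin1 was 2.79, 2.14, 0.908, 0.703 and 1.67 FPKM in WT AP against at most 0.207 FPKM, with a difference of -1.22 ± 0.29 (adjusted p = 0.0016, limma). Both sets were separate. Of the KO lung libraries, only KO AP replicate 3 reached 1 FPKM of Pck1. For Plin1 only KO sham replicate 5 did besides it, and for Adipoq only KO sham replicate 2. These genes thus passed the level filter through WT libraries, and their p-values are not independent of that filter. Retsat was 11.5, 10.7, 11.4, 8.55 and 10.3 FPKM in WT AP against 3.32 to 8.13 FPKM, a difference of -1.01 ± 0.16 (adjusted p = 6.2e-05, limma). Lipe did not pass, at -0.05 ± 0.17 (adjusted p = 0.808, limma), and its WT AP values of 23.5 to 42.4 FPKM overlapped the 26.7 to 45.2 FPKM of KO AP. In a bulk library, fewer adipocytes, less transcript per adipocyte and a change in other cells that express the gene cannot be told apart.

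**Figure D3:**
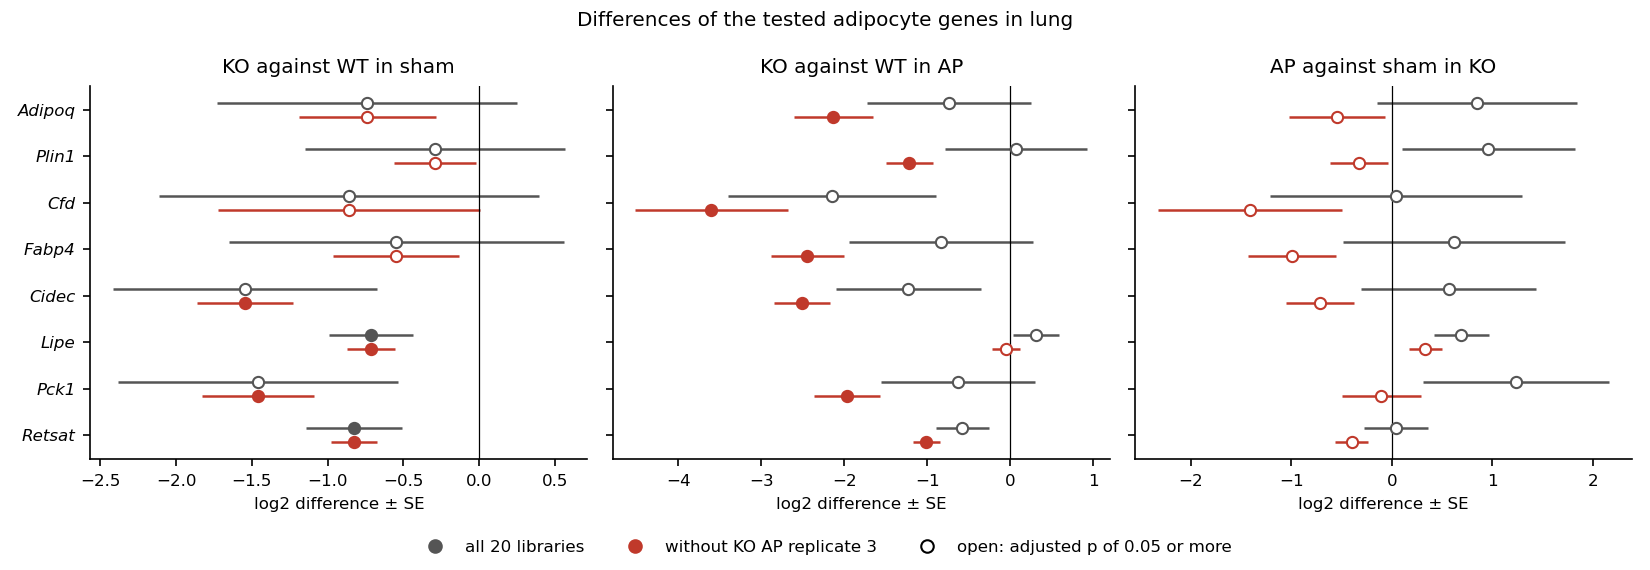
Log2 differences in log2(FPKM + 1) of the 8 tested genes in lung, with bars of 1 SE, for KO against WT in sham, KO against WT in AP and AP against sham in KO; grey is the fit on all 20 libraries, red the fit without KO AP replicate 3, and filled points passed an adjusted p of 0.05. In the middle panel 0 of 8 grey points and 7 of 8 red points are filled, and in the right panel most points change side of 0 between the fits. KO AP replicate 3 was set aside because it was highest for these same genes.

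AP against sham moved none of the 8 genes past the threshold in lung. In WT lung, 0 of 8 passed in limma, beside 0.0814% of all genes tested, and 1066 genes had an unadjusted p under 0.05, none of them a member. Adipoq was 0.85 ± 0.99 log2 higher in WT AP than in WT sham (adjusted p = 0.935), and its 2 groups overlapped, since WT sham replicate 1 was above all 5 WT AP libraries. Cfd was 1.33 ± 1.25 log2 higher (adjusted p = 0.926) and Fabp4 0.91 ± 1.10 (adjusted p = 0.938), again with overlap. Leaving out KO AP replicate 3 brought Plin1 and Fabp4 to unadjusted p-values of 0.0399 and 0.0418 in WT lung, with adjusted values of 0.644 and 0.649 in limma.

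In KO lung, 0 of 8 passed, beside 0.0125% of all genes tested, with 2234 genes at an unadjusted p under 0.05. The sign of 7 of the 8 differences depended on KO AP replicate 3. With it, Adipoq was 0.85 ± 0.99 and Fabp4 0.62 ± 1.10 log2 higher in KO AP than in KO sham. Without it, Adipoq was -0.55 ± 0.48 (adjusted p = 0.543) and Fabp4 -0.99 ± 0.44 (adjusted p = 0.226), and the members' median was -0.47 beside -0.02 for all genes. Lipe kept its sign, at 0.69 ± 0.28 with the library (adjusted p = 0.286) and 0.33 ± 0.17 without it (adjusted p = 0.284). In the fit without that library 0.839% of all genes passed and 0 of 8 members did.

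The difference between the AP responses of KO and WT lung passed for none of the 8 in limma. Lipe came nearest with all libraries, at 1.02 ± 0.39 (unadjusted p = 0.0166, adjusted p = 0.523), when 1384 of all genes had an unadjusted p under 0.05 and 0.00% passed. Without KO AP replicate 3 the value for Fabp4 was -1.90 ± 0.61 (adjusted p = 0.227), and 0.00626% of all genes passed. Lep and Ucp1, below the filter, gave exact permutation p-values of 0.167 or more in all 4 lung comparisons of 2 groups (two-sided, 252 splits each). For these 2 genes the KO AP values rest on 1 library.

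By group median in colon, Pck1, Fabp4, Cfd and Retsat were the highest of the 10 genes in both sham groups. In AP the Cfd median was below that of Lipe, at 5.52 against 5.54 FPKM in WT and 0.287 against 4.65 FPKM in KO. Ucp1 was listed at 0 in 18 of 19 colon libraries. The lung and colon tables were normalized separately, so levels in the 2 tissues are set side by side without a test. Ucp1 reached 0.0241 FPKM in WT AP replicate 5, and Lep at most 0.0633 FPKM. Pck1, which the intestinal epithelium also makes, had a median of 41.4 FPKM in WT sham colon against 1.57 FPKM in WT sham lung. Lipe showed the opposite order, at 4.90 to 6.47 FPKM in WT sham colon and 36.1 to 44.0 FPKM in WT sham lung.

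By the summed level of the 10 genes, WT sham replicate 2 was the highest colon library, at 252 FPKM against 47.8 to 135 FPKM in the other 18. Adipoq was 1.16, 5.94, 1.34, 2.09 and 1.18 FPKM in WT sham colon, and Cfd was 15, 78.3, 23.0, 28.5 and 17.0 FPKM. Cidec was 2.82, 18.5, 4.47, 6.08 and 4.26 FPKM. Replicate 2 was the highest in each of these, and it was the highest of all 19 colon libraries for 6 of the 10 genes, the others being Fabp4, Pck1 and Retsat. Plin1 was higher in KO sham replicate 4 (0.890 against 0.851 FPKM), and Lep was listed at 0 in WT sham replicate 2. Of the 14 further adipocyte genes 5 were highest there, with a sum of 45.8 FPKM against 9.44 to 40.3 FPKM. The share of all genes that were highest in that library was not counted. In the same library, 7 of 8 mesothelial genes were highest, with a sum of 21.6 FPKM against 1.003 to 12.5 FPKM in the other 18. The summed level of 6 colon epithelial genes was 7025 FPKM there, against 1494 to 4712 FPKM. Whether either moves with the fat genes for a shared reason was not tested.

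Adipoq, Plin1, Cfd, Fabp4 and Cidec had their lowest group medians in KO AP colon. Adipoq was listed at 0 in all 4 libraries, where no read means at most 0.0236 to 0.0299 FPKM in a KO colon library. It was 0.188, 1.56, 3.48, 0.189 and 0.183 FPKM in WT AP and 1.18, 0.0598, 0.823, 1.32 and 0.0598 FPKM in KO sham. So each of the 15 libraries of the other 3 groups held Adipoq reads. Plin1 was 0.0136 FPKM in KO AP replicate 1 and listed at 0 in the other 3.

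**Figure D4:**
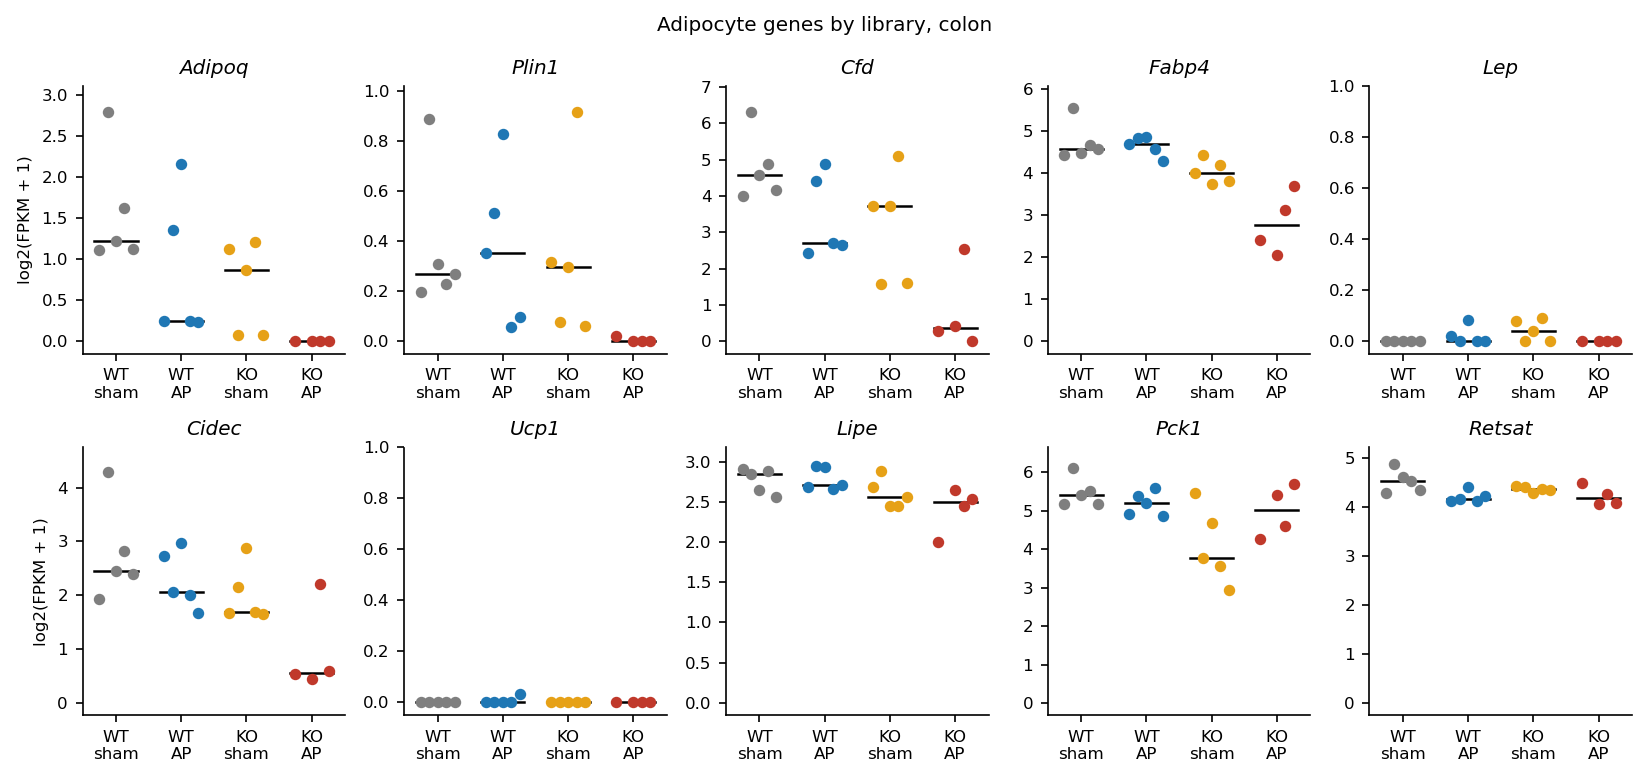
Level of each of the 10 adipocyte genes in the 19 colon libraries, as log2(FPKM + 1), by group; each point is 1 library and the line is the group median. KO AP libraries hold the lowest Adipoq and Fabp4 points, WT sham replicate 2 is the highest point for 6 genes, and Lep and Ucp1 stay at or below 0.0633 FPKM.

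Comparing KO with WT in AP colon, 3 of the 7 tested genes fell, beside 10.9% of all 15001 genes tested that were lower. Fabp4 was 24.7, 27.6, 28.2, 22.8 and 18.5 FPKM in WT AP and 4.33, 3.14, 7.74 and 12.0 FPKM in KO AP replicates 1, 3, 4 and 5, the order used for this group throughout. The groups did not overlap, and the log2 difference was -1.83 ± 0.28 (adjusted p = 0.00081, limma). It passed in all 19 fits that left out 1 library. As in lung, endothelial genes moved alongside: 6 of 8 were lower in KO AP colon, with a median log2 difference of -0.82. Of 6 tested macrophage genes 2 were lower (median -1.11) and of 6 adventitial fibroblast genes 5 (median -0.85). Their part in the Fabp4 value was not tested.

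Cfd was 4.41, 20.3, 28.2, 5.52 and 5.24 FPKM in WT AP and 0.221, 0.352, 4.81 and 0 FPKM in KO AP. The highest KO library, replicate 4, overlapped the lowest WT library. The log2 difference was -2.60 ± 0.74 (adjusted p = 0.0212, limma), and it passed in 15 of 19 fits without 1 library. It missed when any of WT AP replicates 2 and 3 and KO AP replicates 3 and 5 was left out, with an adjusted p of at most 0.0655. Cidec was 5.61, 3.16, 6.87, 3.04 and 2.17 FPKM in WT AP and 0.445, 0.366, 3.62 and 0.515 FPKM in KO AP, with KO AP replicate 4 again inside the WT range. Its difference was -1.34 ± 0.44 (adjusted p = 0.0420, limma), which passed in 12 of 19 such fits. It missed without WT AP replicate 1, 2 or 3, KO AP replicate 1, 3 or 5, or WT sham replicate 4 (highest adjusted p 0.116). With no filter on low levels Fabp4 passed, while Cfd (adjusted p = 0.0509) and Cidec (0.0897) missed the threshold in limma.

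Adipoq itself did not pass in AP colon, at -0.85 ± 0.40 (adjusted p = 0.148, limma), although the 2 groups did not overlap. On log2(FPKM + 0.1), which weighs low levels more, its difference was -2.76 (adjusted p = 0.0289, limma). Plin1 was below the filter and differed by -0.37 on the log2(FPKM + 1) scale (exact two-sided permutation p = 0.0556, 126 splits). With 0.1 added in place of 1, the exact permutation p for Plin1 was 0.0238. Lipe (-0.38 ± 0.14, adjusted p = 0.0622), Pck1 and Retsat did not pass, though Lipe did without KO AP replicate 3 (adjusted p = 0.0476).

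In sham colon, Pck1 and Fabp4 fell in KO, 2 of 7 beside 15.4% of all genes tested that were lower. Pck1 was 35.3, 68.0, 41.4, 44.9 and 35.1 FPKM in WT sham and 42.8, 12.5, 24.8, 10.9 and 6.69 FPKM in KO sham. Of the KO libraries only replicate 1 was inside the WT range, and the log2 difference was -1.39 ± 0.38 (adjusted p = 0.0099, limma). It passed in all 19 fits without 1 library. Fabp4 was 20.6, 45.8, 21.3, 24.4 and 22.8 FPKM in WT sham and 14.9, 20.5, 12.4, 17.2 and 13.1 FPKM in KO sham, without overlap. Its difference of -0.71 ± 0.26 was just past the threshold (adjusted p = 0.0499, limma) and passed in 4 of 19 such fits, those without KO sham replicate 2 or KO AP replicate 1, 3 or 5. The highest adjusted p was 0.124, without WT sham replicate 2. Fabp4 also missed with no filter on low levels (adjusted p = 0.0998) and on log2(FPKM + 0.1) (0.0618), and Pck1 passed with no filter (0.0246). Of the endothelial genes 6 of 8, of 4 tested mesothelial genes 3, of 6 tested macrophage genes 4 and of 6 adventitial fibroblast genes 3 were lower in KO sham colon as well, and their part was not tested.

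AP against sham passed for none of the 7 genes in colon. In WT colon 0.00% of all genes tested passed in limma, with 938 at an unadjusted p under 0.05. Retsat had the smallest unadjusted p of the 7, at 0.0116. It was 18.7, 28.6, 23.6, 22.3 and 19.5 FPKM in WT sham and 16.5 to 20.5 FPKM in WT AP, a difference of -0.32 ± 0.12 (adjusted p = 0.791). In KO colon 0.0400% of all genes passed, with 2798 at an unadjusted p under 0.05. Fabp4, at -1.21 ± 0.28 log2 in KO AP against KO sham, missed the threshold (adjusted p = 0.0734, limma), although every KO AP value was below every KO sham value. It passed without WT sham replicate 2 (0.0463), KO sham replicate 1 (0.0214) or KO AP replicate 5 (0.0337). Cfd was -2.33 ± 0.74 (adjusted p = 0.129) and Cidec -1.06 ± 0.44 (adjusted p = 0.212). The difference between the 2 AP responses passed for none of the 7 in limma, where 0.00% of all genes passed and 2821 had an unadjusted p under 0.05. The Fabp4 value for it was -1.12 ± 0.39 (adjusted p = 0.145).

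Other genes of fat metabolism did not move as one with the 10. In the comparison of KO with WT in AP lung without KO AP replicate 3, 10 of 18 lipid storage genes were lower and 4 higher, with a median log2 difference of -0.36, beside 28.5% lower and 27.2% higher of all genes tested. Cd36, a fatty acid importer that endothelium also makes, fell by 2.44 (SE 0.25, adjusted p = 1.1e-06, limma). Dgat1, which makes triglyceride, rose by 1.39 (SE 0.17, adjusted p = 4.2e-06, limma). Of 9 lipogenic genes 6 were lower and 1 higher, with a median of -0.90, and among them Acly fell by 1.48, Fasn fell by 1.55 and Acaca fell by 0.996. Of the 10 tested white adipocyte genes 4 were lower and 2 higher. Among them Car3 fell by 2.81 (SE 0.75, adjusted p = 0.0038, limma). Of 10 tested regulators of fat cell formation 3 were higher and 1 lower, and Cebpb, an early factor of that program that many cell types share, rose by 1.66 (SE 0.18, adjusted p = 1.7e-06, limma). The median of all genes in this fit was -0.01. Among lung libraries, KO AP replicate 3 was highest for 11 of the 18 lipid storage, 8 of the 9 lipogenic and 11 of 14 white adipocyte genes. Leaving it out lowers the KO AP means of those genes by construction. The shares of these lists and of all genes are therefore not alike.

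With all 20 lung libraries the counts for AP were 5 lower and 5 higher of 18 lipid storage genes, 2 lower and 1 higher of 9 lipogenic genes, and 1 lower and 2 higher of 10 tested white adipocyte genes, beside 28.1% lower and 27.6% higher of all genes. In sham lung they were 9 lower and 5 higher of 18, 5 lower and 1 higher of 9, and none lower and 2 higher of 10, beside 30.0% lower and 28.8% higher of all genes. Brown adipocyte genes gave 1 lower of 6 tested in AP and 2 lower of 6 in sham. The lists around the other members' pathways were mixed. Of 5 tested alternative complement genes, the pathway in which adipsin cleaves factor B, 3 were lower and 1 higher in KO AP lung. Of 4 tested receptors for adipokines 3 were lower, with a median of -0.60. None of 9 tested retinoid genes was lower and 3 were higher. Of 4 tested gluconeogenic genes other than Pck1, 3 were higher and none lower, and without KO AP replicate 3 it was 2 higher and none lower.

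In AP colon, 1 of 7 tested white adipocyte genes was higher and 1 lower in KO, and 1 of 5 tested brown adipocyte genes was lower, beside 7.37% higher and 10.9% lower of all genes. Thrsp fell by 0.71 (SE 0.15, adjusted p = 0.0053, limma) and Cox7a1, a respiratory subunit of muscle and brown fat, fell by 1.36 (SE 0.40, adjusted p = 0.0257, limma). Cd36 fell by 1.18 (SE 0.28, adjusted p = 0.0090, limma). Of 9 tested regulators of fat cell formation 3 were higher and none lower. In KO colon Thrsp was also lower in AP than in sham, by 0.97 (SE 0.15, adjusted p = 0.0287, limma), 1 of the 6 genes called in that comparison.

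How closely the genes tracked Adipoq from library to library was measured within each genotype and tissue, on log2(FPKM + 1). In all, 28 relations were computed, with permutation p-values (exact for 9 libraries) adjusted by Benjamini-Hochberg over the 28. Sham and AP libraries were pooled, so a treatment difference could add to a correlation. In the 10 WT lung libraries Cfd had r = 0.970 and rho = 0.952 with Adipoq (adjusted permutation p = 0.00019 for r and 0.00093 for rho). Plin1 had r = 0.963 and rho = 0.952 (adjusted permutation p = 0.00019 and 0.00070), Fabp4 r = 0.921 and rho = 0.879 (0.0017 and 0.0061 by permutation). For Pck1 the values were r = 0.904 and rho = 0.855 (adjusted permutation p = 0.0019 and 0.0098), and for Cidec r = 0.869 and rho = 0.855 (0.0027 and 0.0098 by permutation).

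These 5 relations held without the 2 libraries farthest from the median of Adipoq, WT sham replicates 1 and 5, with r between 0.723 for Cidec and 0.962 for Cfd. Lipe (r = -0.200, rho = -0.115, adjusted permutation p = 0.668 and 0.817) and Retsat (r = -0.259, rho = -0.418, adjusted permutation p = 0.563 and 0.325) showed no such relation. In WT lung, therefore, 5 of the members tracked Adipoq and these 2 were not shown to.

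In the 10 KO lung libraries KO AP replicate 3 and KO sham replicate 2 form the top end. With all 10, Cfd had r = 0.886 and rho = 0.888 (adjusted permutation p = 0.00049 and 0.0061), and r = 0.842 without those 2. For Cidec r went from 0.959 to 0.195 without them, and for Retsat from 0.812 to 0.0097, so these values rest on those libraries. With KO AP replicate 3 alone left out, Cfd kept r = 0.837 and rho = 0.845 (adjusted permutation p = 0.0021 and 0.0204, 9 libraries, exact). Lipe went the other way, with r = -0.230 and rho = -0.778 (adjusted exact permutation p = 0.387 and 0.0424). Fabp4 passed by r only, with r = 0.716 and rho = 0.460 (adjusted exact permutation p = 0.0155 and 0.308). Plin1 (rho = 0.519), Cidec (rho = 0.142) and Retsat (rho = -0.151) passed by neither.

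In WT colon Cfd was again the closest, with r = 0.972 and rho = 0.964 (adjusted permutation p = 0.00019 and 0.00070), and r = 0.988 without WT sham replicate 2 and WT AP replicate 3. Cidec had r = 0.788 and rho = 0.770 (adjusted permutation p = 0.0110 and 0.0329), but r = 0.368 without those 2, so that relation rests on them. Plin1 (r = 0.841) and Fabp4 (r = 0.786) likewise went to 0.486 and 0.366. Retsat, unlike in WT lung, passed, with r = 0.818 and rho = 0.745 (adjusted permutation p = 0.0078 and 0.0425), and had r = 0.685 without those 2. Whether its relation differs between the tissues was not tested. Pck1 had r = 0.660 and rho = 0.648 (adjusted permutation p = 0.0609 and 0.0866). In the 9 KO colon libraries Plin1 had r = 0.870 and rho = 0.956 (adjusted exact permutation p = 0.00074 and 0.0023) and Cfd r = 0.895 and rho = 0.853 (adjusted exact permutation p = 0.0019 and 0.0198). In KO colon, Pck1 had r = -0.0080 and rho = -0.305 (adjusted exact permutation p = 0.981 and 0.494).

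**Figure D5:**
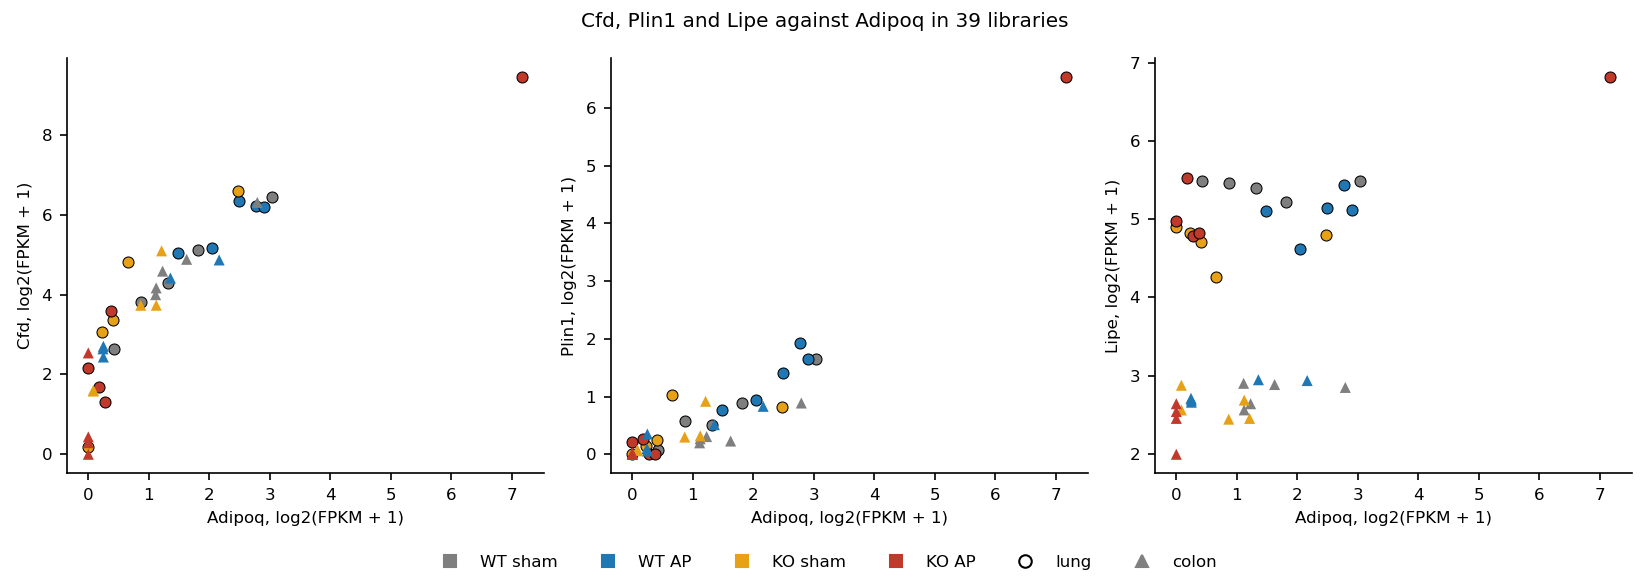
Cfd, Plin1 and Lipe against Adipoq, all as log2(FPKM + 1), in 20 lung libraries (circles) and 19 colon libraries (triangles), coloured by group. Cfd rises with Adipoq in both tissues (r = 0.970 in WT lung and 0.972 in WT colon), Lipe does not in WT lung (r = -0.200), and the point at the far right is lung KO AP replicate 3.

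The proportions between the genes describe the fat signal further. Among libraries with at least 1 FPKM of Adipoq, Cfd was 11.2 to 17.9 times the Adipoq level in 8 WT lung libraries and 8.10 to 17.2 times in 7 WT colon libraries. In lung KO AP replicate 3 it was 4.86 times, below all of those. Plin1 was 0.284 to 0.480 of Adipoq in the WT lung libraries, 0.0826 to 0.273 in the WT colon libraries and 0.639 in KO AP replicate 3. Ucp1 was at most 0.0361 of Adipoq in WT lung, 0 in these colon libraries, and 1.26 times Adipoq in KO AP replicate 3. Cfd, Plin1 and Ucp1 in that library thus lay outside the range of all 8 WT lung libraries. So did the ratios of Cidec (1.28 against 1.98 to 6.45), Lipe (0.777 against 5.17 to 27.8), Retsat (0.172 against 1.65 to 8.54) and Lep (0.0207 against at most 0.0111). Fabp4, at 9.77 times Adipoq, lay inside the WT lung range of 4.78 to 11.5, and Pck1, at 0.718, inside that of 0.492 to 1.11. These ratios are per length and are given as descriptions.

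The genes nearest to Adipoq across libraries were listed by Pearson correlation after the mean of each of the 4 groups had been subtracted. In 20 lung libraries the nearest 8 of 15977 included Car3 (0.971), Retn (0.965), Myl1 (0.964), Plin1 (0.964), Fabp4 (0.960), Pck1 (0.957) and Aoc3 (0.955). Myl1 is a muscle gene. All points share 1 library with extreme values, KO AP replicate 3, so the list was drawn again without it. In 19 libraries the nearest 8 included Car3 (0.896), Cfd (0.832), Retn (0.830), Cyp2e1 (0.820), Plin1 (0.815), Myl1 (0.797) and Flad1 (0.793). Lipe moved from place 299 to place 5729 and Retsat from 309 to 11425. In 19 colon libraries the nearest 8 were Cyp2e1 (0.952), Car3 (0.909), Retn (0.845), Aak1 (0.833), Cfd (0.827), Fbln5 (0.811), Nos1ap (0.756) and Upk3b (0.756), the last a mesothelial gene. Car3, Retn, Cfd and Cyp2e1 were thus among the nearest 8 both in colon and in lung without KO AP replicate 3. Of the 50 nearest genes, members and listed fat genes numbered 11 in lung, 8 in lung without that library and 3 in colon.

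Ordered by group median, Adipoq in lung ran from WT AP (4.60 FPKM) through WT sham (1.49 FPKM) and KO sham (0.322 FPKM) to KO AP (0.208 FPKM). The ranges of WT sham, WT AP and KO sham overlapped one another, and that of KO AP spanned all of them because of replicate 3. Retsat in lung ran from WT sham (12.0 FPKM) through WT AP (10.7 FPKM) and KO sham (6.67 FPKM) to KO AP (4.24 FPKM), and its WT AP range did not overlap that of KO sham. In colon, Adipoq ran from WT sham (1.34 FPKM) through KO sham (0.823 FPKM) and WT AP (0.189 FPKM) to KO AP, with overlap between each of the first 3. Fabp4 in colon ran from WT AP (24.7 FPKM) and WT sham (22.8 FPKM), which overlapped, through KO sham (14.9 FPKM) to KO AP (6.04 FPKM). KO sham overlapped WT AP, and KO AP lay below all other groups.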

How the data were processed

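Total RNA of mouse lung and colon was enriched for mRNA and sequenced on the Illumina NovaSeq platform, per the labels' protocols. The authors deposited 1 table of FPKM values per tissue, with Ensembl gene identifiers and 1 column per library. The submitters' processing notes name HISAT2 2.1.0, StringTie 1.3.3b and the mouse genome build mm39, without their roles. Symbols were matched to 52081 of 55357 genes.

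Library totals were recovered from FPKM steps of genes with 1 transcript. Between 98.8% and 99.2% of low values came out whole to within 0.05 reads. Groups were compared within a tissue with limma 3.58.1 (R 4.3.3; 1 mean per group, trended prior) on log2(FPKM + 1), for genes that reached 1 FPKM or more in 4 or more libraries. Adjusted p-values are Benjamini-Hochberg over all genes tested, with a threshold of 0.05. The fit was tested on simulated data. Members below the filter got exact permutation tests, and relations to Adipoq permutation tests with 100000 resamples, or exact ones for 9 libraries. Alternatives were another pseudocount, no filter, TPM and upper quartile scaling, library weights, fits on only the 2 groups compared, a replicate block and leaving out each library. The relations and the list of genes nearest to Adipoq without KO AP replicate 3 were chosen after seeing the data, and 1 gene of that list is not reported here. The 10 genes are named in every comparison. Other genes are those with the lowest p or highest level of their list, unless said otherwise. The members and lists were chosen with earlier results of these data known. Analyses used Python 3.11.15, numpy 2.4.6, pandas 2.3.3, scipy 1.17.1 and matplotlib 3.10.9.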

Additional observations from a re-analysis of the deposited data

Results flagged for a closer look

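In each group of 4 or 5 libraries, the gap between the highest or lowest library and its nearest neighbour was set against the range of the group with Dixon's criterion. Of 73 sets of 1 gene and 1 group with any spread, 25 held a library that far from the others. The criterion marks about 1 in 20 only for independent, normally distributed values. These sets share libraries, and 10 of the 25 are lung KO AP replicate 3, once per gene. A set with only 1 library above 0 is marked by construction. The count was therefore not set against a chance rate.

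All 10 genes were marked high in lung KO AP replicate 3. The values were 144 FPKM for Adipoq, 91.7 for Plin1, 697 for Cfd, 1402 for Fabp4, 2.97 for Lep, 184 for Cidec, 181 for Ucp1, 112 for Lipe, 103 for Pck1 and 24.6 for Retsat. In the other lung groups Adipoq (4.55 FPKM) and Cfd (95.9 FPKM) stood out in KO sham replicate 2, Fabp4 (34.4 FPKM) in WT sham replicate 1, and Lep (0.0344 FPKM) in WT AP replicate 3, where the other 4 libraries were listed at 0.

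In colon, WT sham replicate 2 stood out for Adipoq (5.94 FPKM), Plin1 (0.851 FPKM), Cfd (78.3 FPKM), Fabp4 (45.8 FPKM) and Cidec (18.5 FPKM). KO AP replicate 4 stood out for Cfd (4.81 FPKM) and Cidec (3.62 FPKM), and KO sham replicate 4 for Plin1 (0.890 FPKM). At levels near 0, Plin1 in KO AP replicate 1 (0.0136 FPKM), Lep in WT AP replicate 3 (0.0588 FPKM) and Ucp1 in WT AP replicate 5 (0.0241 FPKM) were marked because the rest of their group was lower or listed at 0.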

How the results depend on the processing

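With no filter on low levels, which more than doubles the genes tested, 5 of the 7 calls of members missed the threshold in limma: Lipe (adjusted p = 0.0739) and Retsat (0.0731) in sham lung, Cfd (0.0509) and Cidec (0.0897) in AP colon, and Fabp4 (0.0998) in sham colon. Fabp4 in sham colon also missed with a pseudocount of 0.1 (0.0618). With library weights in limma, which count outlying libraries less, the number of genes called for AP against sham in lung was 1640 for WT (13 without weights) and 15 for KO (2), and in colon 4 for WT (0) and 1026 for KO (6). The difference between the AP responses gave 307 in lung (0) and 1884 in colon (0), and KO against WT in AP colon 4360 (2743). Under weights these log2 differences changed sign: Adipoq -0.76, Cidec -0.44, Retsat -0.20, Cfd -2.26 and Fabp4 -0.68 for AP against sham in KO lung, Plin1 -0.89 for KO against WT in AP lung, and Adipoq 0.047 and Cfd 0.42 for KO against WT in sham lung. In colon so did Fabp4 (0.13) for AP against sham in WT, and Pck1 (0.086) and Retsat (-0.089) for KO against WT in AP. Calls gained under weights were Adipoq, Pck1, Cidec, Retsat, Cfd and Fabp4, lower in KO AP lung (adjusted p at most 0.0249, limma), Pck1 (0.0444) and Cidec (0.0147), lower in KO sham lung, and Pck1, Cfd and Fabp4 for AP against sham in KO colon (at most 0.0475). Fits on only the 2 groups also called Pck1 (0.0057) and Cidec (0.0035) in sham lung, a pseudocount of 0.1 called Pck1 there (0.0379), and the TPM scale called Retsat in AP lung (0.0480). With no filter the counts for AP against sham were 1 in WT lung, 5 in KO lung and 2 in WT colon, and the difference in colon gave 2. On the TPM scale they were 1 in WT lung, 4 in KO lung and 3 in KO colon. Fits on only the 2 groups gave 110 in WT lung, 0 in KO lung and 0 in KO colon. A pseudocount of 0.1 gave 1 gene for the difference in lung, and 2 of the tests of members below the filter had p under 0.05 (Plin1 in colon). Plin1 for KO against WT in AP lung was -1.40 with that pseudocount and -0.35 on the TPM scale. Lipe for AP against sham in WT colon was -0.049 on the TPM scale and -0.019 with upper quartile scaling, and Retsat for KO against WT in AP colon -0.10 on the TPM scale.

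Leaving out 1 library at a time, the number of genes called ranged from 0 to 20 (WT lung), 1 to 229 (KO lung), 0 to 1 (WT colon) and 0 to 1374 (KO colon) for AP against sham. It ranged from 1781 to 3291 for KO against WT in AP colon, and from 0 to 2 in lung and 0 to 1170 in colon for the difference between AP responses. The log2 differences for AP against sham in KO lung ranged from -0.55 to 1.28 for Adipoq, -1.41 to 0.79 for Cfd, -0.71 to 0.95 for Cidec, -0.99 to 1.23 for Fabp4, -0.10 to 1.57 for Pck1, -0.32 to 1.31 for Plin1 and -0.40 to 0.25 for Retsat. The lowest value of each is the one without KO AP replicate 3. For KO against WT in AP lung they ranged from -0.052 to 0.45 for Lipe and -1.22 to 0.42 for Plin1, and in AP colon from -0.43 to 0.044 for Pck1 and -0.067 to 0.073 for Retsat. In WT colon, AP against sham ranged from -0.17 to 0.11 for Fabp4 and -0.031 to 0.054 for Lipe. The cause of these changes was not tested.

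Same-numbered libraries were not paired. The correlation of their deviations from group means ran from -0.524 to 0.465 and was under 0.1 for at least 1 number in every comparison. With the replicate number as a block, AP against sham gave 8 genes in WT lung, 1 in KO lung and 0 in KO colon, and KO against WT gave 8722 in AP lung, 9274 in sham lung, 2066 in AP colon and 4129 in sham colon. Lipe in sham lung (adjusted p = 0.05005) and Cidec in AP colon (0.0762) missed the threshold in limma with the block.

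Of the 7 member results past the threshold, the call for Lipe in sham lung was lost in 5 of the 20 fits without 1 library and that for Retsat in 4. In colon, Adipoq passed for KO against WT in sham without WT AP replicate 3 (0.0425), Cfd did without KO sham replicate 4 (0.0282), and Pck1 passed for AP against sham in KO without KO sham replicate 1 (0.0327). Levels of Lep and Ucp1 outside lung KO AP replicate 3 lie near the limit that reads of this depth can show. So do the lowest colon Plin1 values, while Plin1 reached 0.890 FPKM in colon KO sham replicate 4.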
